A study of Mus musculus with 4 samples.

Results

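In mouse distal colon, 10 genes that mark macrophages and monocytes were followed: Adgre1, Csf1r, Cd68, Cd14, Lyz2, Mrc1, Cd163, C1qa, C1qb and C1qc. They were chosen by name as textbook markers, and every probe set that the platform annotation maps to 1 of them by current or older symbol was taken. The 10 are among 18193 genes with a probe set of their own, and they had 14 probe sets, out of 45101 on the array, 34945 of them with 1 gene symbol. The 4 arrays, each of a colon fragment from 1 mouse, were from an Adamts12-deficient (KO) mouse given 2% dextran sodium sulfate (DSS), an untreated KO mouse, a wild-type (WT) mouse given 2% DSS and an untreated WT mouse, all 8 to 10 weeks old at the start. DSS, which damages the epithelium and is used to bring on colitis, was in the drinking water for 7 days according to the series text and for 8 days according to the treatment protocol, and 1 day without it followed. Adamts12 encodes a secreted metalloprotease, and the labels give neither the strain nor which part of the gene is missing. With 1 array in each group, no difference between a pair of arrays has a replicate check.

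Macrophages of the gut wall are replenished largely by blood monocytes, which enter the tissue and mature there. Their survival depends on the receptor encoded by Csf1r, and mature cells take up dying cells and bacteria. In the inflamed colon, newly arrived monocytes and neutrophils make inflammatory cytokines, while the mature resident cells are known for scavenger receptors, complement C1q and the surface protein F4/80.

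The column medians were 3.42 to 3.46 on the log2 scale. The brighter Adamts12 probe set was dim, at 1.41 (KO DSS), 1.42 (KO untreated), 2.18 (WT DSS) and 2.18 (WT untreated), so it checks the genotypes only weakly. Arrays differed in genes of position along the gut. Compared with WT untreated, 6 of 7 measured posterior Hox genes lay at least 2-fold below on KO untreated (median -1.84) and 4 of 7 on WT DSS (median -1.63). Hoxd11, counted in each, was kept through its WT untreated value alone and so could only be lower on the other arrays. Hoxb13, a homeobox gene of the distal colon, was at 8.40 on the KO DSS array and 2.48 on the untreated KO array, and at 7.84 (WT DSS) and 9.47 (WT untreated). Fabp2, a fatty acid binding protein of small intestinal and proximal enterocytes, was at 4.51, 10.62, 8.07 and 6.72 in the same order. Each DSS difference in KO and each untreated KO minus WT difference rests on the untreated KO array, and each DSS difference in WT rests on the WT DSS array. KO DSS is therefore also compared with WT untreated, a contrast added after the data were seen, in which genotype and treatment both differ. The genes of position differed in this contrast too. On KO DSS, 4 of 7 posterior Hox genes, Hoxd11 among them, lay at least 2-fold lower than on WT untreated (median -1.07). Fabp2 was lower by -2.21.

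Start-site windows from RefSeq (GRCm38.p6) were used for 6 of the 10 genes: Cd68, Lyz2, Mrc1, Cd163, C1qb and C1qc. Windows of Adgre1, Csf1r, Cd14 and C1qa were not examined, which does not mean that RefSeq lacks them. The 250 bases before the start are shown, 5′ to 3′, for the neighbouring complement genes C1qb and C1qc, whose brightest probe sets had lower values with DSS in both genotypes, and for Mrc1, whose differences were opposite in the genotypes. Lyz2 and its neighbouring copy Lyz1 are shown because their probe sets are compared later. Capitals mark matches, on either strand, to GAGGAA (the PU box, bound by the macrophage factor PU.1) or to AGGAAGT (a core of the ETS family, to which PU.1 belongs). These may overlap each other, and they were chosen after the sequences were seen.
C1qb, chr4:136886201-136886450, minus strand: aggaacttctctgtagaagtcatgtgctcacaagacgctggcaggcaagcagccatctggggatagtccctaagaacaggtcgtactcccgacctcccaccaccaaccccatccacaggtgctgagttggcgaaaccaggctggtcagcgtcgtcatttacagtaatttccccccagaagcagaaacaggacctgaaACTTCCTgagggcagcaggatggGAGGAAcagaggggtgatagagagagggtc
C1qc, chr4:136892915-136893164, minus strand: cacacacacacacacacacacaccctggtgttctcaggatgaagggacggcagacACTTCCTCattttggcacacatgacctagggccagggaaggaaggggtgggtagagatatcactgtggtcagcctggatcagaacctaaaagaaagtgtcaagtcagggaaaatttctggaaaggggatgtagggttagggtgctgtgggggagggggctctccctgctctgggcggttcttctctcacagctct
Mrc1, chr2:14229164-14229413, plus strand: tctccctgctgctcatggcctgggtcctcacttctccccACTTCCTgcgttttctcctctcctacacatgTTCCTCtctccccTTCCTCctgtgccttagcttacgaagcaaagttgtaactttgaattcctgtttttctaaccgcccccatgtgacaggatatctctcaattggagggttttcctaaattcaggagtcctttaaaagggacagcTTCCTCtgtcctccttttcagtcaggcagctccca
Lyz2, chr10:117282273-117282522, minus strand: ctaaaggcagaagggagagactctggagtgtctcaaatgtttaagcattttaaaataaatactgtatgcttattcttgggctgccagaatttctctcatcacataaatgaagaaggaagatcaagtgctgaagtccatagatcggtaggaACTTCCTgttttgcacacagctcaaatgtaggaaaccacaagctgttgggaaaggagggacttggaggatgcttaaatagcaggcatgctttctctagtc
Lyz1, chr10:117292869-117293118, minus strand: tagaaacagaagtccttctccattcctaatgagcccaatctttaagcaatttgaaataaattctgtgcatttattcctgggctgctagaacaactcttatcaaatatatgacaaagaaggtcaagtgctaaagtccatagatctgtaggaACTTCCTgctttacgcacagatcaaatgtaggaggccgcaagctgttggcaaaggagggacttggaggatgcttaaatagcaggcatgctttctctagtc

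Of the 6 windows, 5 held at least 1 of these motifs, and Cd163 held none, where 27.3% of 32851 mouse windows of that length held either. Because the motifs were chosen after these sequences were seen, the 5 of 6 cannot be weighed against that share. GAGGAA alone was in 23.3% of all windows and AGGAAGT in 7.69%. In C1qb a PU box began 30 bases before the start and the ETS core 53 bases before it, on opposite strands. In C1qc the motifs overlapped in 1 stretch about 195 bases before the start. Mrc1 held 3 PU boxes and 1 ETS core, Cd68 held 1 PU box, and Lyz2 and Lyz1 each held the ETS core 100 bases before the start. In those 100 bases, Lyz2 and Lyz1 had the same base at 92 positions, and over the whole 250 at 152. A match is a description of the letters, not a binding site.

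**Figure D1:**
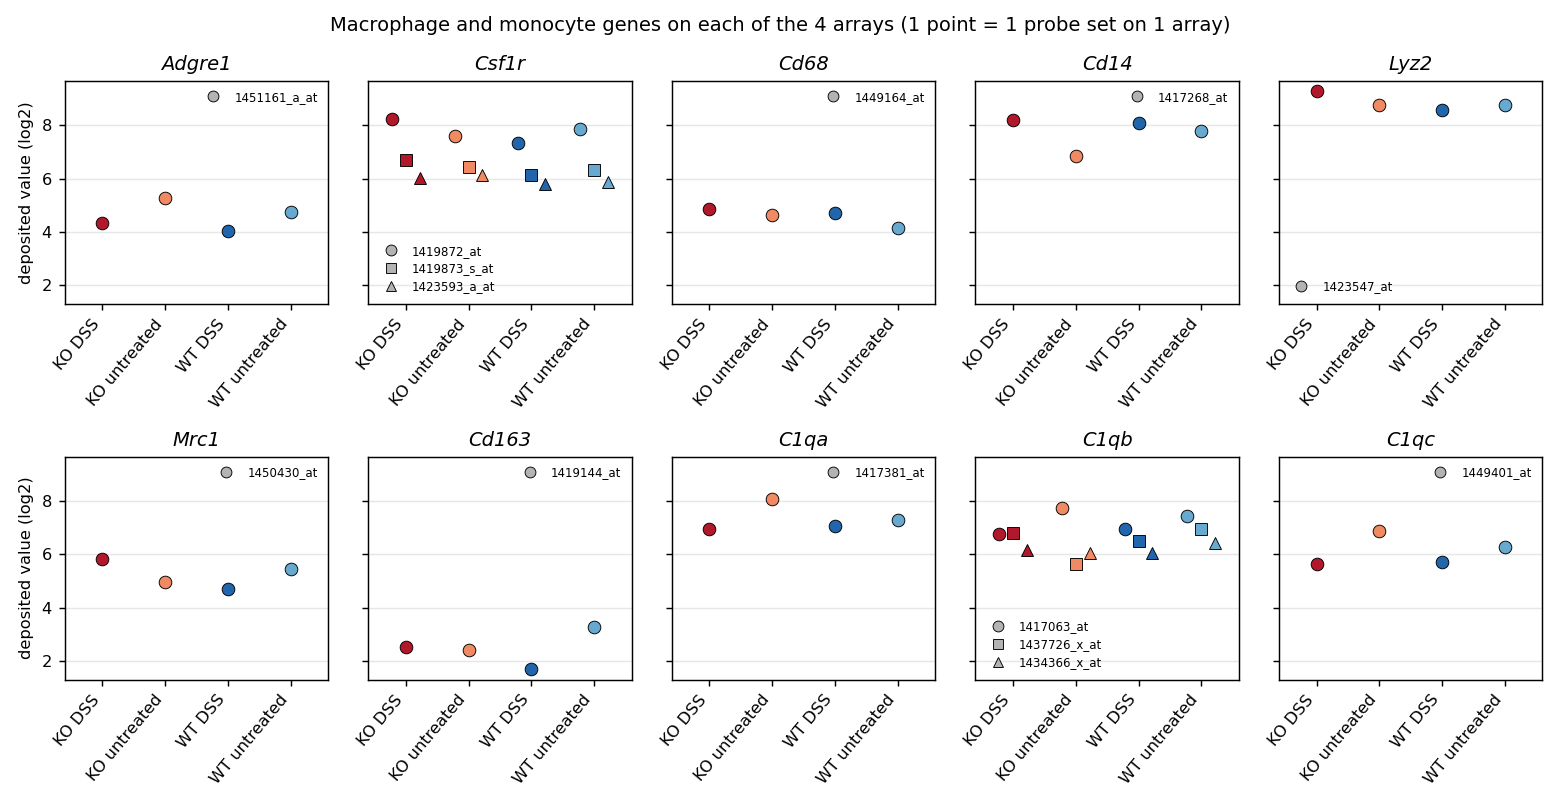
Deposited log2 values (y axis) of all 14 probe sets of the 10 genes on the 4 arrays (x axis), with 1 point for each probe set on 1 array and a marker shape for each probe set of a gene. C1qa and C1qc were highest on the untreated KO array, Cd14 was lowest there, and the 3 C1qb probe sets did not share a pattern.

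C1qa and C1qc had lower values on the DSS arrays, and C1qb had them on its brightest probe set. C1q, made up of the chains A, B and C, binds dying cells and antibody complexes and starts the classical complement pathway. C1qa (1417381_at) was at 6.94 with DSS and 8.07 without in KO, and at 7.06 with DSS and 7.30 without in WT. Both DSS arrays lay below both untreated arrays, an order whose share among all genes was not counted. The log2 differences were -1.13 in KO and -0.24 in WT. C1qc (1449401_at) had the same order, at 5.63 with DSS and 6.88 without in KO, and at 5.71 with DSS and 6.29 without in WT. Its differences were -1.25 in KO and -0.58 in WT, so the KO DSS value was 0.42 times the untreated KO value.

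C1qb depended on the probe set. The brightest (1417063_at) followed C1qa and C1qc, at 6.77 (KO DSS), 7.74 (KO untreated), 6.95 (WT DSS) and 7.43 (WT untreated), with differences of -0.97 in KO and -0.48 in WT. A second probe set (1437726_x_at) was at 6.80, 5.63, 6.49 and 6.94 in the same order, so it was lowest, not highest, on the untreated KO array, and its DSS difference in KO was 1.17. The third (1434366_x_at) was nearly flat, between 6.04 and 6.43. The names of the second and the third end in _x_at, which Affymetrix gives to probe sets that can match several transcripts. In WT all 3 agreed in sign, with DSS differences between -0.48 and -0.37. In a bulk sample, fewer cells of a type and less RNA per cell cannot be told apart.

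Adgre1, which encodes F4/80, had lower values with DSS in both genotypes. Its probe set was at 4.34 (KO DSS), 5.29 (KO untreated), 4.02 (WT DSS) and 4.75 (WT untreated). The DSS arrays did not overlap the untreated ones, an order whose share among all genes was not counted. The differences were nearly equal, -0.95 in KO and -0.73 in WT. Cd68, a lysosomal glycoprotein gene of phagocytes, was at 4.87 (KO DSS), 4.63 (KO untreated), 4.71 (WT DSS) and 4.16 (WT untreated). It lay higher with DSS by 0.24 in KO and 0.55 in WT.

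Csf1r encodes the receptor of the growth factors CSF1 and IL-34, on which most tissue macrophages depend. Its brightest probe set (1419872_at) was at 8.25 (KO DSS), 7.60 (KO untreated), 7.35 (WT DSS) and 7.85 (WT untreated). The DSS array was thus the higher of the KO pair, by 0.65, and the lower of the WT pair, by -0.50. The other probe sets of the gene varied less. For 1419873_s_at the differences were 0.24 in KO and -0.18 in WT, and for 1423593_a_at they were -0.09 and -0.05. All 3 had higher values in KO than in WT among the DSS arrays, by 0.22 to 0.90.

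Cd14 encodes the co-receptor that hands lipopolysaccharide to TLR4. It was at 8.20 (KO DSS), 6.84 (KO untreated), 8.09 (WT DSS) and 7.81 (WT untreated). The untreated KO array was the low one, while the other 3 lay within 0.39. The DSS differences were 1.36 in KO, or 2.57-fold, and 0.28 in WT.

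Lyz2 encodes the lysozyme of macrophages and neutrophils, and Lyz1 that of Paneth cells. Lyz2 (1423547_at) was at 9.29 (KO DSS), 8.78 (KO untreated), 8.58 (WT DSS) and 8.76 (WT untreated), with differences of 0.51 in KO and -0.18 in WT. Of the 3 Lyz1 probe sets, 1439426_x_at had differences of 1.08 in KO and -0.59 in WT, and 1436996_x_at of 0.85 and -0.47. Both had bright values, and both can match several transcripts by their names. The third (1450822_at) was dim, between 1.87 and 2.37. All 4 lysozyme probe sets were highest on the KO DSS array. They were lowest on the WT DSS array, apart from 1439426_x_at, which was lowest on the untreated KO array (8.13 on the WT DSS array and 7.99 on the untreated KO array). Signals of these gene copies cannot be told apart on a probe set that matches both.

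The scavenger receptor genes Mrc1 and Cd163, markers of mature resident macrophages, were lowest on the WT DSS array. Mrc1, the mannose receptor, was at 5.84 (KO DSS), 4.97 (KO untreated), 4.71 (WT DSS) and 5.46 (WT untreated). Its DSS differences were opposite, 0.87 in KO and -0.75 in WT. Cd163, the receptor for haemoglobin bound to haptoglobin, was dim, at 2.52, 2.40, 1.68 and 3.26 in the same order, so its differences were 0.12 in KO and -1.58 in WT. It lay under the median of every array, was left out by the filter on dim probe sets, and is not in the counts that follow. Its WT untreated value stood highest, at percentile 47.9 of that array.

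For counts, each gene was represented by its brightest probe set among those above the median of at least 1 array, which kept 13 of the 14 probe sets and 9 of the 10 genes. At least 2-fold is 1 on the log2 scale. In KO, 1 of the 9 genes was at least 2-fold higher with DSS (Cd14), where 10.8% of 12189 genes were, and 2 were at least 2-fold lower (C1qa and C1qc), where 6.68% were. C1qb at -0.97 and Adgre1 at -0.95 were just inside 2-fold. In WT, 0 of the 9 were at least 2-fold higher and 0 lower, where 5.82% and 4.96% of all genes were. The median differences of the 9 genes were 0.24 in KO and -0.48 in WT, beside 0.06 and -0.01 for all genes.

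The genes differed in direction. Lower with DSS in both genotypes were 4 of the 9, Adgre1, C1qa, C1qb and C1qc, where 26.9% of all genes were. Higher in KO and lower in WT were Csf1r, Lyz2 and Mrc1, where 22.6% of all genes were. Cd14 and Cd68 were higher in both, where 30.3% were. With KO DSS compared with WT untreated, 0 of the 9 genes lay at least 2-fold higher and 0 lower, where 6.14% and 5.05% of all genes were. The differences then were -0.41 for Adgre1, -0.36 for C1qa, -0.66 for C1qb and -0.66 for C1qc. The other C1qb probe sets had -0.26 and -0.14. Above 0 were 5 of the 9, Cd68 at 0.71, Lyz2 at 0.53, Csf1r at 0.40, Cd14 at 0.39 and Mrc1 at 0.38, and the median of the 9 was 0.38.

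**Figure D2:**
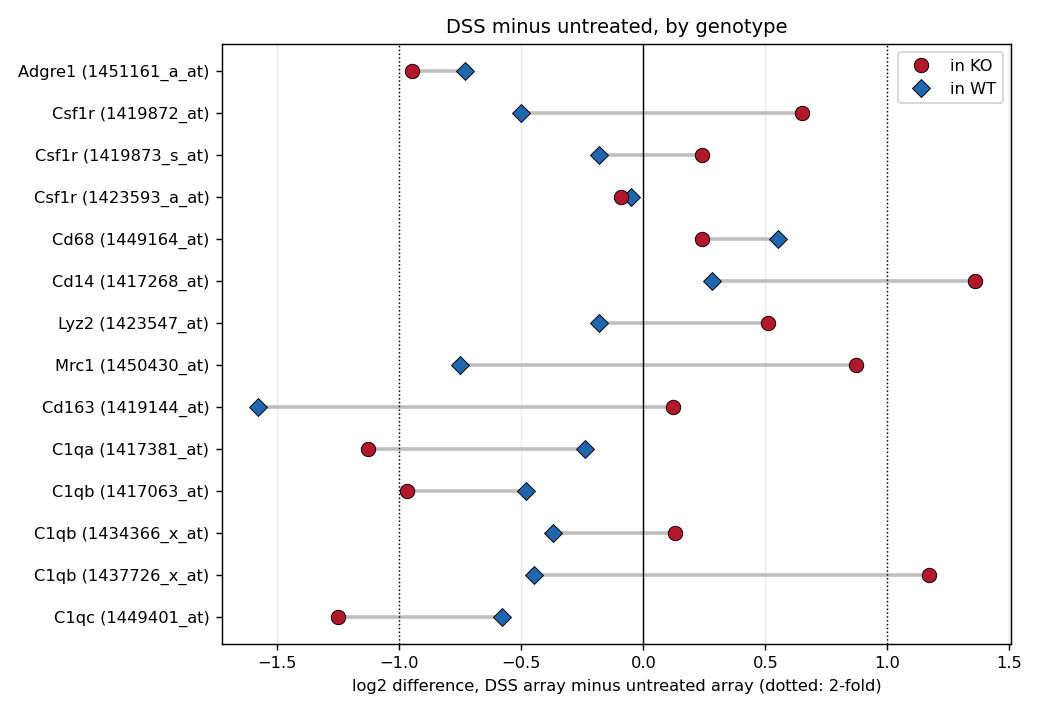
Log2 difference of the DSS array minus the untreated array (x axis) in KO (circles) and WT (diamonds) for each probe set (y axis), with dotted lines at 2-fold. Adgre1, C1qa, C1qc and the brightest C1qb probe set lie left of 0 in both genotypes, and Mrc1 lies at 0.87 in KO and -0.75 in WT.

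The test over all 4 arrays, limma with genotype as covariate, called 0 of 12189 genes for DSS at an adjusted p under 0.05, or 0%, and 0 of the 9. At an unadjusted p under 0.05 there were 2 of the 9, Adgre1 and C1qc, where 11.8% of all genes were (1435). In limma, Adgre1 differed by -0.84 (SE 0.25, unadjusted p = 0.032, adjusted p = 0.397) and was lower in both genotypes. For C1qc, limma gave -0.92 (SE 0.29, unadjusted p = 0.037, adjusted p = 0.402), also lower in both. The other 7 had adjusted p-values in limma from 0.435 for C1qb to 0.974 for Mrc1. A gene's own spread in this model is how far its DSS effect differed between the genotypes, with 1 residual degree of freedom. The eBayes step pooled it with a trend drawn from all genes, which counted for 2.67 degrees of freedom at the median. The SEs and p-values from limma therefore rest more on other genes than on the gene's own spread.

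KO against WT was compared within each treatment. Among the DSS arrays, Mrc1 was the 1 gene of the 9 at least 2-fold higher in KO, at 1.13, where 4.22% of all genes were, and 0 were 2-fold lower, where 1.21% were. Csf1r was next at 0.90 and Lyz2 at 0.71, and the C1q genes on their brightest probe sets differed by -0.18 to -0.08. The other C1qb probe sets had 0.11 and 0.31. The median of the 9 was 0.16, beside -0.02 for all genes. Among the untreated arrays, 0 were at least 2-fold higher and 0 lower in KO, where 3.43% and 5.98% of all genes were. Cd14 was lowest there at -0.97 and C1qa highest at 0.77, with a median of 0.31 beside -0.01 for all genes. The second C1qb probe set, at -1.31, was past 2-fold. In limma's test of KO against WT, 0 of 12189 genes passed at an adjusted p under 0.05, or 0%. At an unadjusted p under 0.05 there were 0 of the 9 and 1.44% of all genes (175).

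**Figure D3:**
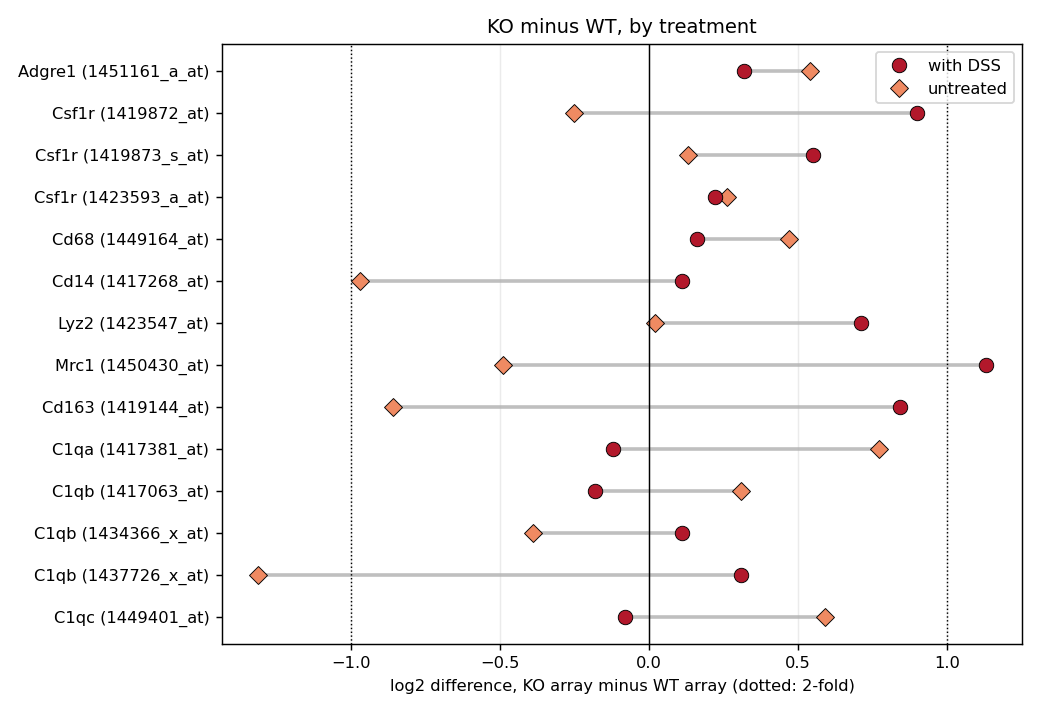
Log2 difference of the KO array minus the WT array (x axis) with DSS (circles) and untreated (diamonds) for each probe set (y axis), with dotted lines at 2-fold. Mrc1 lies at 1.13 with DSS and -0.49 untreated, and the C1q genes on their brightest probe sets lie right of 0 untreated and close to 0 with DSS.

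Genes around Csf1r, Cd14 and C1q were followed in lists chosen from textbook knowledge, with the 10 genes left out. For these and the later lists, the shares of all genes at least 2-fold higher and lower with DSS were 10.8% and 6.68% in KO. In WT they were 5.82% and 4.96%, and for KO DSS compared with WT untreated 6.14% and 5.05%. Some of the list counts lie near these shares. Of 5 measured genes of CSF1 receptor ligands and other colony stimulating factors, 3 lay at least 2-fold higher with DSS in KO and 0 lower, and 0 in either direction in WT, with medians of 1.13 and -0.13. Csf1, the main ligand of the CSF1 receptor, was at 5.60 (KO DSS), 4.92 (KO untreated), 4.61 (WT DSS) and 4.74 (WT untreated). The other ligand gene, Il34, was at 4.70, 3.57, 3.84 and 4.32, lowest on the untreated KO array. Csf2rb, the shared beta chain of the receptors for GM-CSF, IL-3 and IL-5, was at 7.63 on the KO DSS array, against 4.82, 5.66 and 5.40 on the others. Csf3, the gene of G-CSF, was kept through its KO DSS value alone and so could only be higher there. Without it, 2 of 4 were higher in KO.

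The chemokines that draw monocytes were uneven. Of 8 measured chemokine and receptor genes, 3 lay at least 2-fold higher with DSS in KO (Ccl2, Ccl7 and Ccr1) and 1 lower (Ccl12), and 0 in either direction in WT. Ccl2, the ligand of the monocyte receptor CCR2, was at 5.85 (KO DSS), 3.55 (KO untreated), 3.70 (WT DSS) and 3.14 (WT untreated). Its KO DSS value was well above the other 3. Ccr2 itself was flat, between 4.61 and 4.85. Cx3cr1, the fractalkine receptor of resident gut macrophages, was dim and lower with DSS, by -0.69 in KO and -0.51 in WT. It was kept through its untreated values alone and so could only be lower with DSS.

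Of 13 genes of lipopolysaccharide sensing around Cd14, 4 lay at least 2-fold higher with DSS in KO and 1 in WT, and 0 were lower in either, with medians of 0.56 and 0.04. Lbp, which encodes the serum protein that delivers lipopolysaccharide to CD14, was at 7.56 (KO DSS), 4.79 (KO untreated), 6.96 (WT DSS) and 5.57 (WT untreated). It was higher with DSS by 2.77 in KO and 1.39 in WT. Compared with WT untreated, KO DSS had 1 gene of this list 2-fold higher, in place of 4. Tlr2, a receptor of bacterial lipopeptides, was lower with DSS in KO by -0.55 and higher in WT by 0.54.

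In the classical complement pathway, the proteases that join C1q did not share its pattern. C1ra and C1s1, the serine proteases of the C1 complex, were higher with DSS in KO by 1.48 and 1.37, and differed by -0.33 and -0.09 in WT. C2, cleaved in the next step, was lower by -1.20 in KO and -0.71 in WT. C3ar1, a receptor for the fragment C3a found on macrophages, was at 3.42 (KO DSS), 5.55 (KO untreated), 3.88 (WT DSS) and 3.94 (WT untreated), high on the untreated KO array alone. Of the 5 measured genes, 2 lay at least 2-fold higher and 2 lower with DSS in KO, and 0 in either direction in WT. Compared with WT untreated, KO DSS had 3 higher and 0 lower.

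Of 24 other surface and adaptor genes of monocytes and macrophages, 6 lay at least 2-fold higher and 2 lower with DSS in KO, and 0 higher and 1 lower in WT (Lyve1, which lymphatic endothelium also expresses, named after its values were seen). Over all genes, 10.8% were higher and 6.68% lower in KO, and 5.82% and 4.96% in WT. The medians of the 24 were 0.13 in KO and -0.01 in WT. By the mean of both DSS differences, the lowest were Mertk, a receptor for uptake of dying cells (-2.12 in KO, -0.35 in WT), and Ms4a7, a membrane protein gene of mature macrophages (-1.52 and -0.35). Mertk was at 4.93 (KO DSS), 7.05 (KO untreated), 5.41 (WT DSS) and 5.76 (WT untreated), again highest on the untreated KO array. By the same mean, the highest were Clec7a, the beta-glucan receptor dectin-1 (1.99 and -0.02), and the scavenger receptor gene Msr1 (1.32 and 0.36). Clec7a was at 7.23 on the KO DSS array, against 5.24, 5.07 and 5.09 on the others. Compared with WT untreated, KO DSS had 3 genes higher, in place of 6, and 0 lower.

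Among 11 transcription factor genes, 2 lay at least 2-fold higher with DSS in KO (Nr4a1 and Cebpb) and 2 lower (Cebpa and Id3). In WT, 1 was higher (Cebpb) and 1 lower (Maf). Cebpb, a factor of inflammatory myeloid genes that epithelium also expresses, was higher by 1.58 in KO and 1.14 in WT. Id3, a helix-loop-helix inhibitor, was lower by -1.56 and -0.72. Spi1, the gene of PU.1, was at 4.92 (KO DSS), 4.75 (KO untreated), 4.26 (WT DSS) and 4.42 (WT untreated), a range of less than 2-fold, and it was named after its values were seen.

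Of 14 phagolysosome genes, 1 lay at least 2-fold higher with DSS in KO (Gpnmb, 1.78) and 0 lower, and 0 were higher and 1 lower in WT (Npc2, -1.23). The medians were -0.07 and -0.28, and Ctss, the cathepsin S gene of antigen-presenting cells, was lower by -0.42 in KO and -0.84 in WT. Of 14 genes of alternatively activated macrophages, 4 were higher and 2 lower in KO, and 1 was higher and 3 lower in WT. Of the 2 lower in KO, Folr2 was kept through its untreated KO value alone and could only be lower with DSS there. Chil3, a chitinase-like protein gene of myeloid cells, was at 7.02 (KO DSS), 2.27 (KO untreated), 3.43 (WT DSS) and 2.13 (WT untreated), higher by 4.75 and 1.30. It was kept through its DSS values alone, so the filter favoured a higher value with DSS. Its WT DSS value lay just above that array's median of 3.42. The selenoprotein P gene Selenop, which epithelium also expresses, was lower by -1.85 in KO and -1.89 in WT, nearly equal amounts. The iron exporter gene Slc40a1 was lower by -0.97 and -1.33.

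The inflammatory macrophage and monocyte genes had the highest list medians with DSS among these lists. Of 15 measured, 13 lay at least 2-fold higher in KO and 0 lower, and 4 higher and 0 lower in WT, with medians of 2.14 and 0.36. Of the 13, 5 were kept through their KO DSS value alone (Il6, Chil1, Clec4e, Clec4d and Trem1) and so could not be lower there. Of the other 10, 8 were higher in KO, and the medians were 1.85 in KO and 0.51 in WT. Among these 10, Nos2 was kept through its DSS values alone, so the filter favoured a higher value with DSS. Il1b, the interleukin-1 beta gene, was at 7.72 (KO DSS), 4.41 (KO untreated), 6.07 (WT DSS) and 4.44 (WT untreated), the DSS array being the higher of each pair. Ptgs2, the inducible cyclooxygenase gene, was higher by 5.56 in KO and 1.04 in WT. Il6 was at 6.28 on the KO DSS array and between 1.05 and 1.24 on the other 3, under the 1.39 taken as the limit of background, the top value among Y-linked probe sets. The 4 in WT were Il1b, Nos2, Ptgs2 and Thbs1, of which Nos2, the inducible nitric oxide synthase gene, was higher by 1.70 in KO and 1.77 in WT. Compared with WT untreated, KO DSS had 12 higher and 0 lower.

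**Figure D4:**
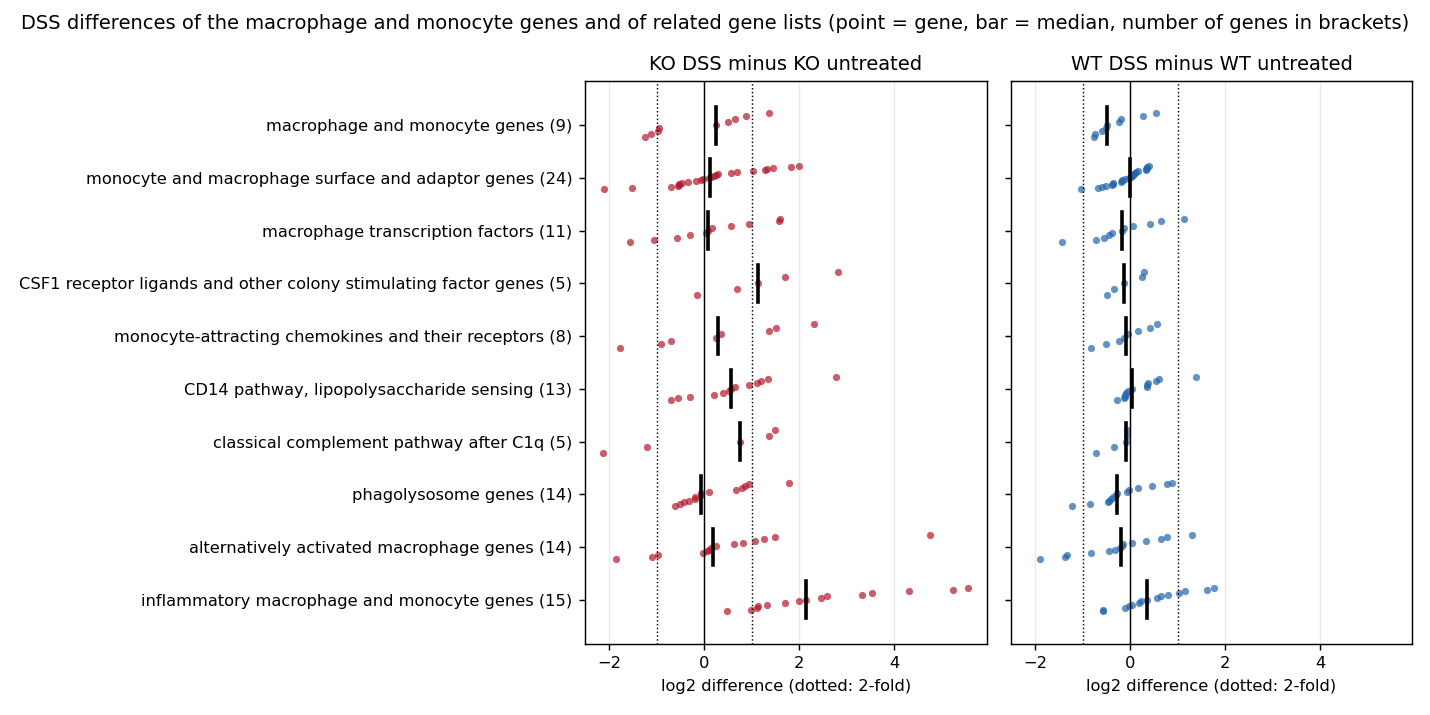
Log2 difference with DSS (x axis) in KO (left) and WT (right) for the 9 kept genes and for 9 related lists (y axis), with 1 point per gene, a bar at each median and the number of genes in brackets. The inflammatory list has medians of 2.14 in KO and 0.36 in WT, while the macrophage and monocyte genes have medians of 0.24 and -0.48.

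Among the DSS arrays, the KO minus WT median was above 0 in each of these 9 lists, from 0.17 to 1.49. At least 2-fold higher in KO were 13 of the 15 inflammatory genes (median 1.49), 3 of 5 complement genes (1.28), 3 of 8 chemokine and receptor genes (0.665) and 4 of 24 surface genes (0.59), and 0 were lower. Over all genes, 4.22% were at least 2-fold higher in KO and 1.21% lower. The 13 include the 5 kept through their KO DSS value alone, which could not be lower there. Of the other 10 inflammatory genes, 8 were at least 2-fold higher in KO (median 1.24). The 9 kept macrophage and monocyte genes had 1 higher and a median of 0.16. Phagolysosome genes had 0 in either direction and a median of 0.17.

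Markers of other cell types moved with several of these genes. All 6 pan-leukocyte genes were higher with DSS in KO and lower in WT, as Csf1r, Lyz2 and Mrc1 were. Their summed level, the sum of the genes' values on the linear scale, was 1709 (KO DSS), 762.2 (KO untreated), 623.5 (WT DSS) and 1107 (WT untreated). The 7 B and plasma cell markers had medians of 2.60 in KO and -1.34 in WT, with a summed level of 3320.0, 1994, 2098 and 4273. The 8 neutrophil markers, all above background on every array, had medians of 1.26 and 0.64, with a summed level of 826.5, 87.3, 159.4 and 55.6, and S100a8 was higher by 6.41 and 4.20. On WT untreated, S100a8 at 1.61 and Mmp8 at 1.44 were close to the background limit of 1.39. The filter kept S100a8, S100a9 and Mmp9 through their DSS values alone, Mmp8 through KO DSS alone and Elane through untreated KO alone. It thus favoured the directions of these genes. Neutrophils also express Lyz2, Cd14 and several of the inflammatory genes. The 8 fibroblast markers had medians of 0.92 and -0.24, and the 8 T and NK cell markers -0.68 and -0.22. Dendritic cell markers had medians of 0.165 in KO and -0.415 in WT, mast cell and eosinophil markers 1.39 and 0.45, and endothelial markers 0.74 and 0. Smooth muscle markers had 0.405 and -0.55, and colon epithelial markers -0.315 and -0.115. Posterior Hox genes had 1.32 and -1.63, and Paneth cell and small intestinal markers -2.38 and 0.03. Of the T cell, dendritic cell, mast cell and endothelial markers, Cd2, Ccr7, Cpa3 and Cdh5 were kept through their KO DSS value alone. The summed level of the 9 macrophage and monocyte genes was 1613 (KO DSS), 1444 (KO untreated), 1196 (WT DSS) and 1386 (WT untreated). The part of other cell types in the differences was not tested.

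**Figure D5:**
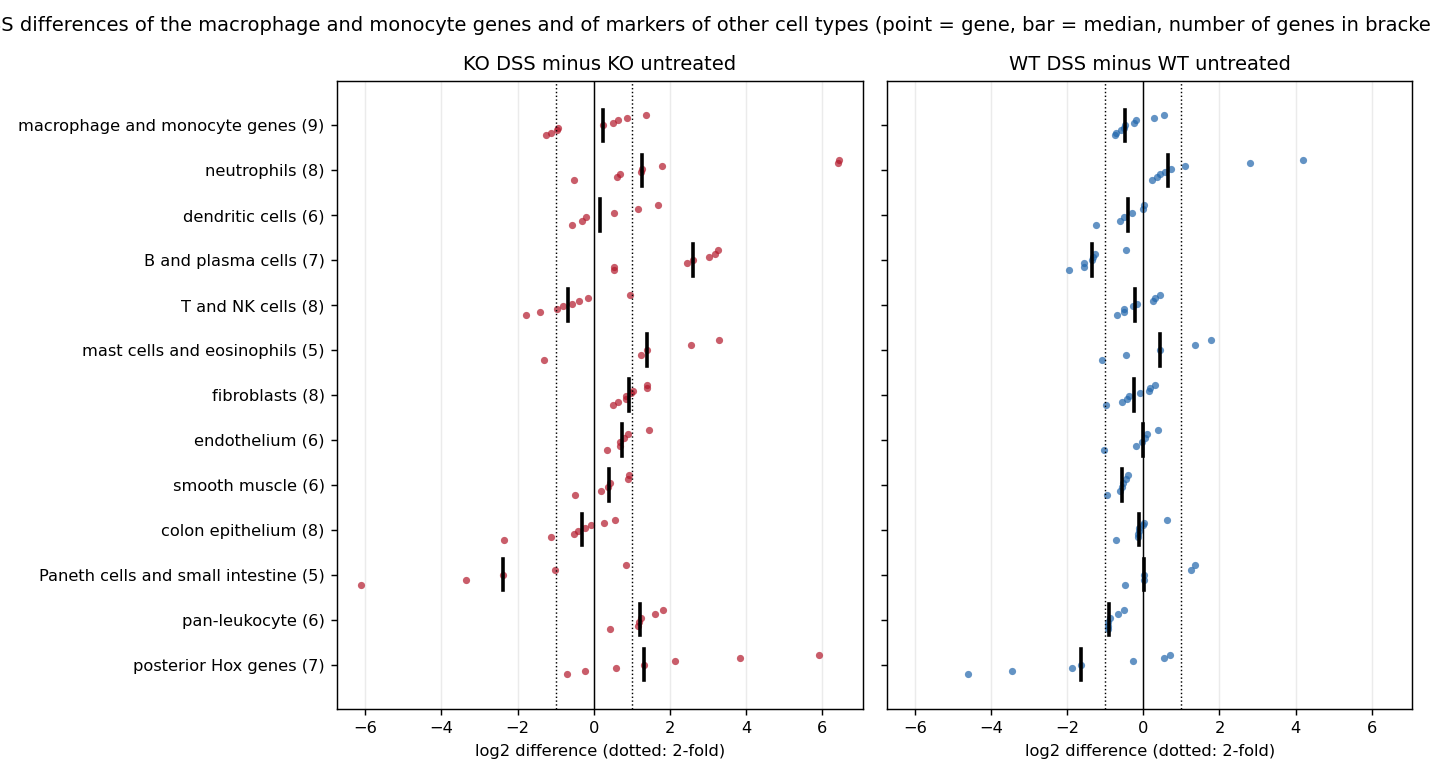
Log2 difference with DSS (x axis) in KO (left) and WT (right) for the 9 kept macrophage and monocyte genes, markers of other cell types and posterior Hox genes (y axis), with 1 point per gene, a bar at each median and the number of genes in brackets. B and plasma cell markers have medians of 2.60 in KO and -1.34 in WT, and neutrophil markers have medians of 1.26 and 0.64.

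Over the 4 arrays, the mean profile of the 9 genes spanned 0.40 on the log2 scale after each gene was centred on its mean. The 5 other genes nearest to it by Euclidean distance were Chrnb1, Tmcc2, Sema4b, Zfp945 and Hic1, at distances of 0.026 to 0.048. The mean profile of C1qa, C1qb and C1qc spanned 1.12, and the nearest were Khk, Inpp5j, Ppp1r13b, Nos1ap and Stard3nl, at 0.046 to 0.074. The second profile was added after the values were seen. With 4 values per gene, such likeness is a description only.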

How the data were processed

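Total RNA of 4 mouse distal colons, extracted with Trizol, was made into biotinylated cRNA and hybridised to Affymetrix arrays, per the labels' protocols. The range of the authors' deposited values showed a log scale, taken to be log2. Their summarization and normalization are not given in the sources used here, and they were used as deposited. Scanner files and detection calls were not used here, and the number of arrays limits the precision. The labels give 1 mouse per group.

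Probe sets were named through the platform annotation (34945 with 1 symbol, 932 with several, 9160 unnamed). Of those with 1 symbol, 34741 were matched by gene number to RefSeq (GRCm38.p6), which gave the current symbol. Probe sets above the median of at least 1 array were kept, and the brightest represented its gene (12189 genes). Differences within pairs of arrays have no test. DSS and KO effects were tested with limma 3.58.1 in R 4.3.3 (lmFit, eBayes with trend, the other factor as covariate, two-sided, Benjamini-Hochberg over all genes, threshold 0.05), tested on simulated data. The limit of background, 1.39, is the top value among 9 probe sets of Y-linked genes, since Xist was bright on all 4 arrays. A list's summed level adds its genes' values on the linear scale.

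The genes, lists and motifs were chosen with earlier results of these data known. Named were all 10 genes, any member of lists of 9 or fewer, the 3 highest and 3 lowest mean DSS differences of longer lists, and 5 nearest genes. Where a count was 5 or fewer, its genes were also named (such as Nos2, Thbs1, Clec4d, Trem1 and Folr2), after their values were seen. Dendritic cell, mast cell and eosinophil, endothelial, smooth muscle, epithelial, Paneth cell and posterior Hox lists served to follow other cells and the position along the gut. The calculations were repeated with quantile normalization, median centring, no filter, the 75th percentile filter, the mean over probe sets, leaving out _x_at and _s_at probe sets, and limma without the covariate or the trend. Some listed genes were not analysed here. Calculations also used Python 3.11.15, pandas 2.3.3 and matplotlib 3.10.9.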

Additional observations from a re-analysis of the deposited data

Results flagged for a closer look

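Several DSS effects had opposite directions in the 2 genotypes, each by at least 0.5 on the log2 scale, with 1 mouse per group. The difference itself was not tested. Mrc1 (1450430_at) was higher with DSS by 0.87 in KO and lower by -0.75 in WT, a gap of 1.62 between the DSS effects. Csf1r (1419872_at) had 0.65 in KO and -0.50 in WT, a gap of 1.15, while its other probe sets had gaps of 0.42 and -0.04. Among the marker lists, the same opposition was seen in the medians of B and plasma cell markers (2.60 in KO and -1.34 in WT, a gap of 3.94), pan-leukocyte genes (a gap of 2.12) and posterior Hox genes (1.32 and -1.63, a gap of 2.95). The untreated KO array enters each KO value. Compared with WT untreated, KO DSS was higher by 0.38 for Mrc1 and 0.40 for Csf1r, and by 0.66 in the median of the B and plasma cell markers, while the posterior Hox median was -1.07.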

How the results depend on the processing

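The recalculated summary values stayed within 1.5 times, or 1.5-fold for medians, in 137 cases and moved further in 12, and no difference past 2-fold among the 9 genes changed sign. With quantile normalization, 4 of the 9 genes lay at least 2-fold lower with DSS in KO, where 2 did as deposited, and limma called 1 gene for DSS, Lrg1, in place of 0. Median centring put 1 gene, Cd14, in place of 0 at least 2-fold lower in untreated KO. Without the filter, Cd163 made 1 gene 2-fold lower with DSS in WT, and 296 genes, in place of 175, had an unadjusted p under 0.05 for KO in limma. The median gap between the DSS effects of the genotypes was -0.22 over the 9 genes, 0.69 with the 75th percentile filter, which keeps fewer of them, 0.235 without the filter and 0.51 with the mean over probe sets. Limma without the covariate also called 1 gene for DSS, again Lrg1, and 102 had an unadjusted p under 0.05 for KO. With KO DSS compared with WT untreated, 0 genes were 2-fold higher and 0 lower, and limma without the untreated KO array and the covariate left 1 of the 9, in place of 2, at an unadjusted p under 0.05, where dropping the covariate alone left 3. With the mean over probe sets, C1qb differed by 0.11 with DSS in KO and by -0.46 in untreated KO. Where no cause is named, the cause was not tested. No paired analysis was possible because each group had 1 array from 1 mouse, and limma's only block is the other factor. Dim signals limit Cd163 and Adamts12.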
